A study of Homo sapiens with 6 samples.

Results

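Intermediate filaments are the ropes of the cytoskeleton, built from rod-shaped proteins that pair, pack into tetramers and assemble without nucleotide. Vimentin (VIM) forms them in mesenchymal cells and in podocytes, the glomerular cells whose foot processes cover the capillary. Keratins form them in epithelia as obligate pairs of a type I and a type II protein, and lamins line the inside of the nuclear membrane in nearly all cells. The 10 genes followed here, from this family and its linkers and measured in cultured human podocytes, were VIM, the type IV genes NES (nestin) and SYNM (synemin), the type II keratins KRT7 and KRT8, the type I keratins KRT18 and KRT19, the lamin genes LMNA and LMNB1, and PLEC (plectin), which ties filaments to one another and to other structures. They were chosen by name with earlier results of these data known, and all 10 of 10 were among the 20745 genes of the deposited table.

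The cells were AB 8/13, a conditionally immortalized human podocyte line grown at a permissive temperature and differentiated at a restrictive one. The study had 6 cultures, 3 given vehicle and 3 given 1 µM levamisole, an anthelminthic used as a steroid-sparing drug in nephrotic syndrome, each for 24 h. All cultures shared the line and its immortalizing gene, and each group was grown from 3 passages. The treatment protocol in the labels describes vehicle and levamisole cultures alike as serum-free for that time, whereas the methods of the study place the vehicle cultures in complete medium. RNA was sequenced by an adaptation of CEL-seq, so that each read comes from near the 3′ end of a polyadenylated transcript.

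The values below are base means, that is, the authors' mean of normalized counts per gene over all libraries of their fit. The table gives no value per culture, so no spread can be attached to a level and the depth of each library is unknown. It also holds the authors' own contrast of levamisole with vehicle, which was not used, so whether these genes respond to levamisole was not analysed here. The libraries behind a base mean may be more than the 6 cultures. All 3744 genes with a base mean under 1 had different values at 9 decimals. Whole reads can fall into 6 libraries of equal size in 461 ways that give a base mean under 1. With a set of size factors spread from 0.5 to 2, there are 808 such ways. Each count is only an upper limit on the number of different values for its setting. Other size factors were not tried, and the number of libraries was not tested.

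The podocyte label was set against marker genes. Among podocyte markers, the base mean was at least 5 for CD2AP at 929, SYNPO at 22.8, PODXL at 15.3, TCF21 at 7.20 and WT1 at 6.21. PTPRO was at 0.333, and no value of the slit diaphragm gene NPHS1 or of LMX1B was analysed here. All 6 markers of the parietal epithelium of Bowman's capsule reached 5, from 7.76 for PROM1 to 2965 for CLDN1, with PAX8 at 1198. Of 8 tubular markers 2 reached 5 (AQP1 at 243 and EPCAM at 76.3), and of 5 mesangial or stromal markers 2 did (COL1A1 at 2733 and ACTA2 at 1021). Of 5 endothelial and 3 leukocyte markers, 0 reached 5. The most specific podocyte markers were thus low or without a value here, so the levels below describe the AB 8/13 line and not podocytes in a glomerulus.

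Vimentin was the most abundant of the 10 transcripts and keratin 7 the next. VIM had a base mean of 19062, which placed it 24th among all genes, and it took 0.461% of the summed base means of the nuclear genes. KRT7, a type II keratin of ducts and other simple epithelia, had a base mean of 4824 and was 88th. KRT19, the smallest keratin, which lacks most of the tail domain, had 1075 and was 696th. With PLEC, at 680 and 1200th, these were the 4 genes in the top 10% of the 13336 genes at or above a base mean of 5, a limit of 620.

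KRT8 and LMNA fell just short of that limit. KRT8, the type II partner of keratin 18, had a base mean of 534 and LMNA, which gives lamins A and C by alternative splicing, had 511. KRT18 followed at 118, above 58.8% of those genes. The remaining 3 genes lay well below the median of 82.6 for the 13336 genes, with LMNB1 at 23.6, SYNM at 23.05 and NES at 18.1. NES, which codes for a large type IV protein that co-assembles with vimentin and marks podocytes in the kidney, was therefore the lowest of the 10 at 10780th.

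**Figure D1:**
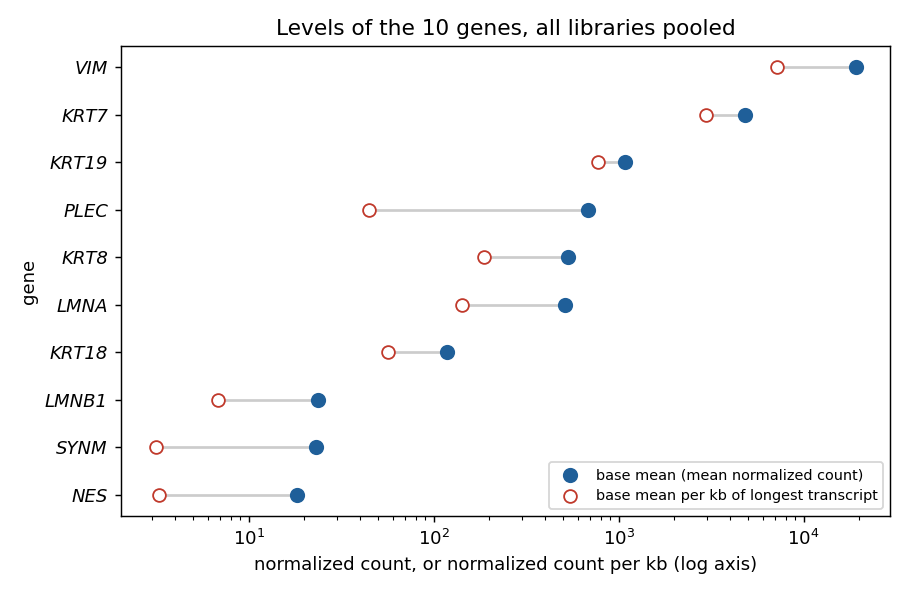
Level of each of the 10 genes on a log axis, as the base mean (filled blue, normalized counts averaged by the authors over all libraries) and as the base mean per kilobase of the longest annotated transcript (open red). VIM is at 19062 and NES at 18.1, and PLEC moves left the most when divided by length. No error is drawn because no value per culture was analysed.

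Summed, the 10 genes had a base mean of 26870, or 0.423% of the whole table. VIM made up 70.9% of that sum, KRT7 18.0%, KRT19 4.001% and PLEC 2.53%. The 22 genes of the mitochondrial genome took 34.8% of the table, and without them the share of the 10 genes was 0.649%. Neighbours in the order whose base means were close were KRT8 and LMNA, 1.04 times apart, and LMNB1 and SYNM, 1.02 times apart. With no replicate values, it cannot be said whether either pair differs.

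**Figure D2:**
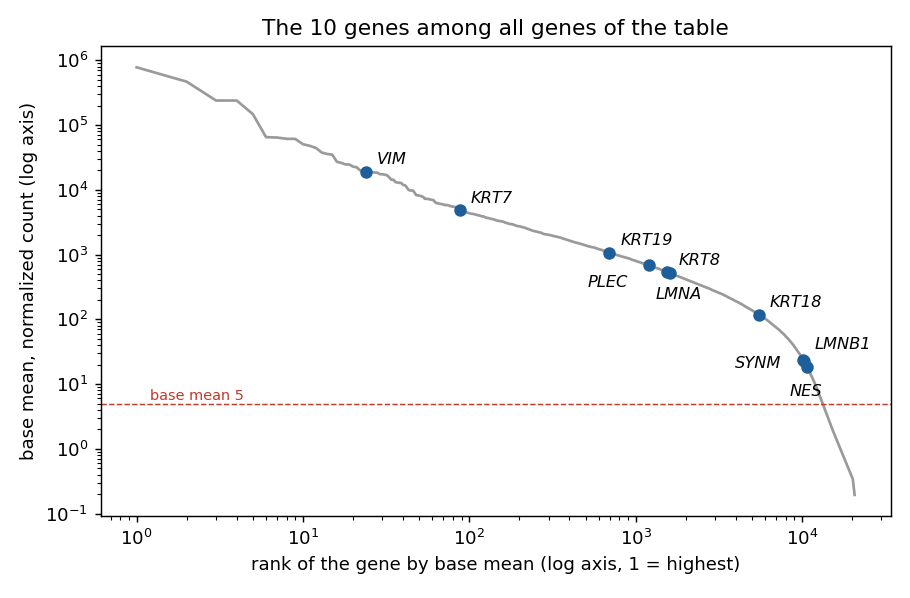
Base mean against rank for all genes of the table (grey line, both axes log), with the 10 genes as blue points and a dashed line at a base mean of 5. VIM sits at rank 24 and KRT7 at 88, while LMNB1, SYNM and NES sit at ranks from 10203 to 10780, above the line.

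Levels of different genes were also compared per kilobase, although reads from the 3′ end need not grow with transcript length. Per kilobase of the longest annotated transcript, VIM led again with 7150 normalized counts, followed by KRT7 with 2969 and KRT19 with 773. PLEC, whose longest transcript is 15.2 kb, dropped from place 4 to place 7, at 44.6 normalized counts per kilobase. KRT8 then had 187, LMNA 141 and KRT18 56.5, all above PLEC. NES at 3.26 and SYNM at 3.13 changed places at the foot of the list.

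Against its partners in filament assembly, vimentin stood far apart. The VIM base mean was 827 times that of SYNM, a bridging protein found in muscle and some epithelial and glial cells, and 1051 times that of NES. Per kilobase these ratios were 2281 and 2195. Each of nestin and synemin needs a partner such as vimentin to form filaments. The type III relatives GFAP and PRPH had base means of 0.365 and 0.752, and no value of DES, the muscle gene for desmin, was analysed here. Among type IV genes, however, all 6 had a base mean of at least 5, and the neurofilament gene NEFL at 1077 and INA (alpha-internexin) at 289 both exceeded NES and SYNM. NEFM was at 46.9 and NEFH at 13.8. Of the remaining filament genes, SYNC (syncoilin) was at 191 and the lens gene BFSP1 at 6.33.

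In the keratin family, few genes carried nearly all reads. The annotation holds 55 keratin genes, of which 22 had a value and 10 a base mean of at least 5. The 4 keratins of the list made up 91.6% of the summed keratin base means. The other 6 at or above 5 were KRT80 at 332, KRT10 at 157, KRT34 at 42.2, KRT81 at 19.2, KRT17 at 13.8 and KRT23 at 13.8. Here KRT80 is a type II keratin of many epithelia, KRT10 marks the upper layers of epidermis, and KRT34 and KRT81 are hair keratins. The basal keratin KRT5 was at 0.472.

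Keratins assemble as type I with type II, so each type was summed. KRT7 and KRT8, both type II, together had 4.49 times the base mean of the type I genes KRT18 and KRT19. Over all keratins with a value the sums were 5717 for type II and 1437 for type I. KRT7 had 40.9 times the base mean of KRT18 and 9.03 times that of KRT8, and KRT19 had 9.11 times that of KRT18. KRT8 and KRT18 encode the classical pair of simple epithelia, and KRT8 had 4.53 times the base mean of KRT18, or 3.30 times per kilobase.

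The genes of that pair are neighbours on chromosome 12 of GRCh38. KRT8 (ENSG00000170421) lies from 52897187 to 52949954 on the minus strand and KRT18 (ENSG00000111057) from 52948871 to 52952906 on the plus strand, where they overlap by 1084 bases in opposite directions. KRT7 (ENSG00000135480) lies in the same cluster on the plus strand, from 52232520 to 52252186. Between KRT7 and KRT8 the highest base mean of any keratin was 19.2, for KRT81, so high values stood at both ends of this stretch and low ones between them. KRT19 (ENSG00000171345), unlike KRT18, lies in the type I cluster on chromosome 17, from 41523617 to 41528308 on the minus strand.

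Keratins 8 and 18 are also known for many processed pseudogenes, copies of the mRNA pasted back into the genome, and this bears on their values. GENCODE 44 lists 51 pseudogenes named for KRT8, 68 for KRT18 and 5 for KRT19. A value was found for 1 of the KRT8 copies, KRT8P12 at 2.58, and for 3 of the KRT18 copies, which summed to 1.17. Adding them changed no place in the order. A read that matches a gene and a copy equally well is left out by the authors' counting, so such reads would be missing from both.

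To see how often this can happen, every 60-base window of a transcript, the length of the sequenced cDNA read, was searched for exact copies elsewhere in GRCh38. Among the last 500 bases of the transcript, where CEL-seq reads fall, 35.1% of the windows of KRT8 and 29.9% of those of KRT18 had a copy. In the last 1000 bases the shares were 38.3% and 28.3%. No window of VIM, LMNB1, SYNM or NES had one anywhere in the transcript. In the last 500 bases the shares were 0% for KRT19 and PLEC, 0.227% for KRT7 and 3.17% for LMNA. Of all filament genes searched, SYNC had the highest share there, 45.1%, so its base mean carries the same limit. Over the whole transcript, the windows of KRT8 matched 27 of its own pseudogenes and those of KRT18 matched 31.

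**Figure D3:**
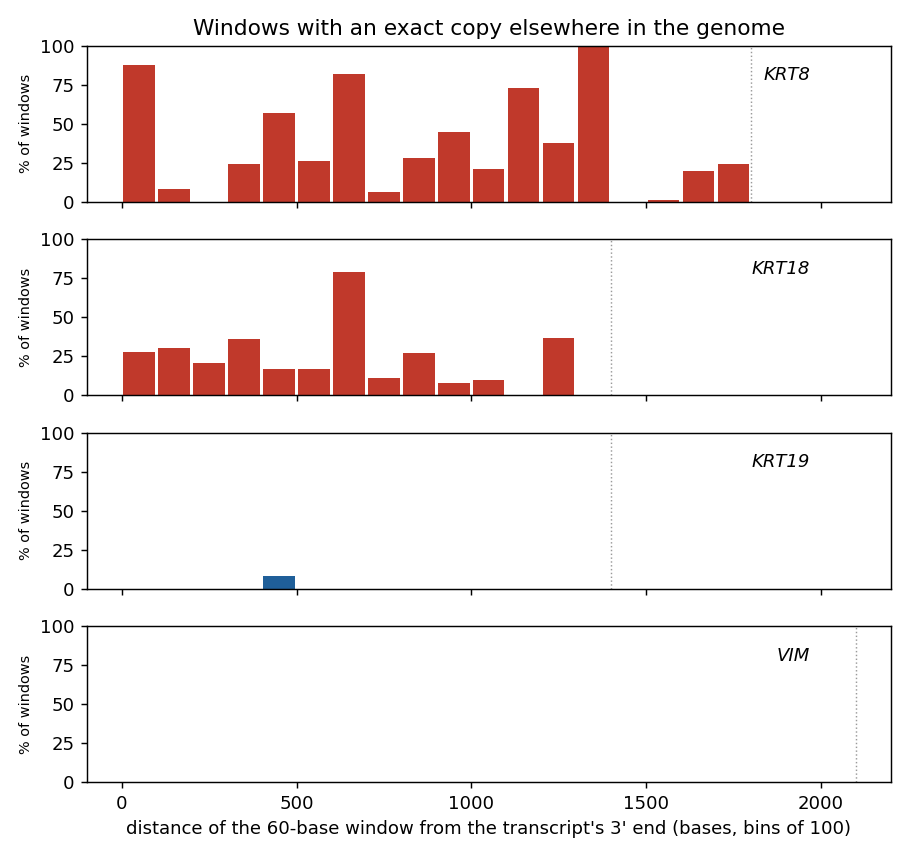
Percentage of 60-base windows with an exact copy elsewhere in GRCh38, in bins of 100 bases from the 3′ end, for KRT8, KRT18, KRT19 and VIM; the dotted line marks the far end of each transcript. KRT8 and KRT18 have copies along most of their length, KRT19 in 1 bin and VIM in none.

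An example shows how close a copy can be. It was chosen to hold an exact 60-base match, in the pseudogene that shares the most windows with KRT18, 101 of them. It sets 100 coding bases of KRT18 beside the same stretch of one pseudogene, written 5′ to 3′ with the bases that differ in capitals, and the 60 bases after the first 20 are identical. The KRT18 stretch is chr12:52951517-52951616 on the plus strand, and its copy KRT18P11 is chrX:92460354-92460453, also plus, with 3 differences.
KRT18: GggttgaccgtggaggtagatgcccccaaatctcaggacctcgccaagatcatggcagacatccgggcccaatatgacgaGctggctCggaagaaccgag
KRT18P11: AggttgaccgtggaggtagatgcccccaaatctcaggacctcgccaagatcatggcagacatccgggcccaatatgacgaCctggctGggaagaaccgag

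If reads fell evenly over the last 500 bases, the base means divided by the share of windows without a copy would be 824 for KRT8 and 168 for KRT18. KRT8 would then stand above PLEC, and it would have 4.89 times the level of KRT18. The gap between the pair was thus not narrower on that scale. Real reads are not spread evenly, and how many were lost was not tested.

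The lamin genes showed a wide gap. LMNA (ENSG00000160789, chromosome 1 of GRCh38, 156082573 to 156140081, plus strand) had 21.7 times the base mean of LMNB1 (ENSG00000113368, chromosome 5, 126776623 to 126837020, plus strand), and 20.8 times per kilobase. LMNB2, the other B-type lamin gene, was at 202, which is 8.58 times LMNB1, so LMNA had 2.53 times the base mean of LMNB2. B-type lamins stay farnesylated and bound to the membrane, whereas lamin A is made from a precursor that is clipped by the protease ZMPSTE24. The table sums the reads of lamins A and C.

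Genes that process lamins or hold them at the membrane were present at moderate levels. Of 18 listed, 17 had a base mean of at least 5, and the median of all 18 was 164. Among all genes of the table, 64.3% reached a base mean of 5. The highest were TOR1AIP1, which binds lamins from the inner nuclear membrane, at 672, TOR1A at 592, TMPO, the gene for LAP2 proteins, at 471, BANF1, which bridges DNA and LEM proteins, at 459, and the nesprin gene SYNE2 at 427. The one gene under 5 was SYNE3 at 2.15, the nesprin that reaches intermediate filaments through plectin. Of the 18 listed genes, only TOR1AIP1 and TOR1A exceeded LMNA.

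Plectin is the member of the list that reaches outward. PLEC (ENSG00000178209) lies on the minus strand of chromosome 8 from 143915153 to 143976734. Of the 12 plakin and linker genes, 10 had a base mean of at least 5. MACF1, which joins actin to microtubules, was at 2347, JUP (plakoglobin) at 1745, DSP (desmoplakin, which anchors keratin at desmosomes) at 605, DST (dystonin) at 469 and PKP4 at 451. In this order PLEC stood below MACF1 and JUP and above DSP, but these transcripts differ in length. EVPL at 41.8 and PPL at 6.11, the plakins of the cornified envelope, were far lower.

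**Figure D4:**
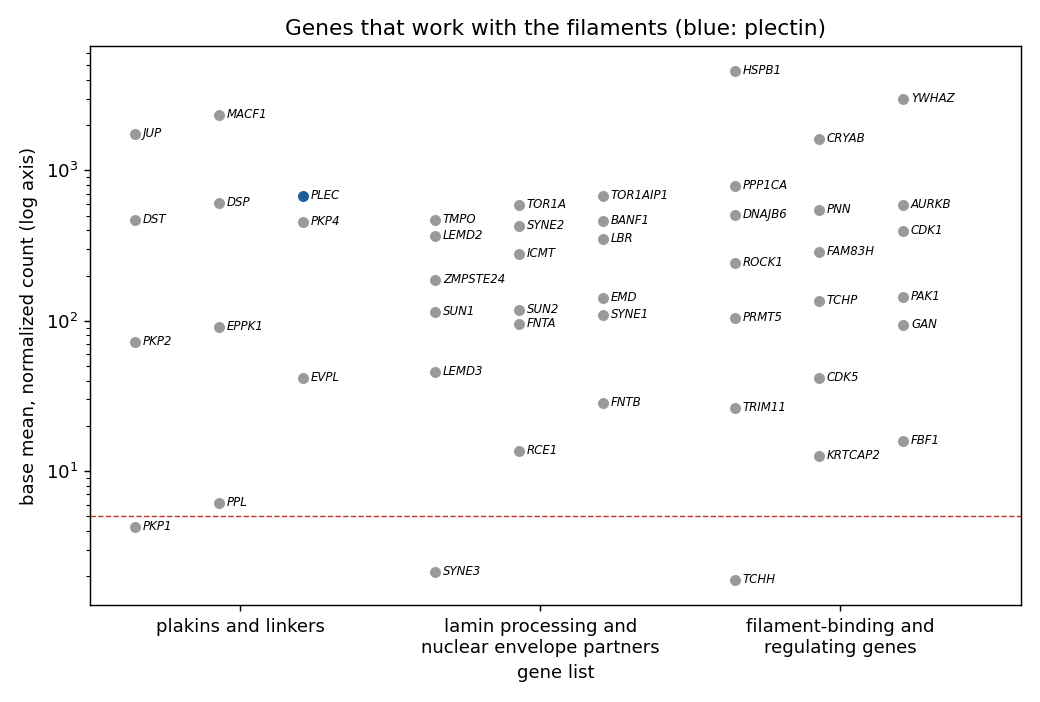
Base mean (log axis) of the listed genes with a value in 3 groups: plakins and linkers, lamin processing and nuclear envelope partners, and genes that bind or regulate filaments; PLEC is blue, sideways spread is for legibility and the dashed line is a base mean of 5. HSPB1 is the highest point at 4560 and SYNE3 at 2.15 and TCHH at 1.90 are the lowest.

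Another list held chaperones, adaptors and kinases that act on filaments, and 18 of its 19 genes had a base mean of at least 5. HSPB1, a small heat shock protein that binds vimentin and keratin filaments, was at 4560, close to KRT7. YWHAZ, a 14-3-3 protein that binds phosphorylated vimentin and keratin 18, was at 2980, and CRYAB, the other small heat shock protein, at 1621. PPP1CA, a catalytic subunit of protein phosphatase 1, was at 783. AURKB, which phosphorylates vimentin during cell division, was at 587.

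Further checks of the counting touched none of the 10 genes. The last 500 exonic bases of the Ensembl canonical transcript of each overlapped by 0% with same-strand exons of any other gene. Ends of other transcripts, such as those of LMNA, were not checked. The antisense transcripts VIM-AS1 at 4.86 and KRT7-AS at 3.91 had far lower base means than VIM (ENSG00000026025, chromosome 10, 17228241 to 17237593, plus strand) and KRT7. SYNM (ENSG00000182253) lies on chromosome 15 from 99098217 to 99135593 on the plus strand, and NES (ENSG00000132688) on chromosome 1 from 156668763 to 156677407 on the minus strand.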

How the data were processed

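The 6 cultures were sequenced from the 3′ end (adapted CEL-seq). The authors trimmed reads with Trim Galore 0.4.5, mapped them to GRCh38 with STAR 2.7.5a, counted them with HTSeq 0.11.0 on Ensembl 95 and compared groups with DESeq2 1.22.0. The deposited table holds their base mean, a signal in normalized counts pooled over libraries, and log2 fold changes, standard errors, Wald statistics and p-values of their comparison, which were not used. Depth per library is unknown, so no test was run.

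Ranks, shares and ratios were computed with Python 3.11.15 and pandas 2.3.3. Positions, lengths and pseudogenes come from GENCODE 44 on GRCh38, the authors' assembly with a later annotation, in which 20599 gene identifiers matched. Exact 60-base copies were searched on both strands of the assembled chromosomes, outside the gene itself, for the Ensembl canonical transcript, and the search was tested on simulated data. A base mean of 5, after the study's cutoff on reads, counted as detected, and 64.3% of all genes reached it.

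The 10 genes and the lists were chosen with earlier results of these data known. Beyond the 10, the text names the 5 highest genes of each list, keratins of at least 5, and podocyte markers. SYNE3, TCHH, EVPL, PPL, KRT5, GFAP, the remaining markers and the antisense genes were named after their values were seen. Figures were drawn with matplotlib 3.10.9. Some markers and one sequence are not reported here.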

Additional observations from a re-analysis of the deposited data

How the results depend on the processing

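No paired analysis was possible because each gene has a single pooled value, and for the same reason refits, other normalizations and left-out replicates were not run. All 10 genes stayed detected at base mean minimums of 1 and 10, and 7 at 50. Among all 20745 genes, 3744 were under 1, the gene ranked 11992 was at 10.0 and the gene ranked 8253 was at 50.3. The detected intermediate filament genes, 22 at a minimum of 5, numbered 12 at 50, 30 at 1 and 21 at 10. The share of the 10 genes rose from 0.423% to 0.649% without mitochondrial genes, which makes the total smaller. Per kilobase of the longest transcript 6 genes changed place in the order, and per kilobase of merged exons 5 did. Dividing by the share of windows without a copy, an alternative chosen after seeing the data, moved 2 genes, KRT8 and PLEC, over the last 500 or 1000 bases. In the top 10%, the 4 genes became 6 against all genes of the table and 4 against protein-coding genes. Unknown depth and pooled libraries limit every level.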
